A study of Mus musculus with 4 samples.

Results

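Contractile smooth muscle nuclei were picked out of 4 single-nucleus RNA libraries of mouse aortic tissue by marker genes: 2451 of the 107709 nuclei kept from 107978 deposited barcodes. Kept nuclei had at least 300 genes detected and at most 10% of their unique molecular identifiers (UMIs, each 1 captured RNA molecule) from mitochondrial genes. A member had at least 1 UMI for at least 4 of 10 smooth muscle genes, Myh11, Acta2, Tagln, Cnn1, Lmod1, Myocd, Itga8, Mylk, Synpo2 and Smtn. It had a UMI for at most 1 of 12 genes of other cells: Hpse2 and Col19a1, which mark a second mural population of these aortas, Pecam1, Cdh5 and Vwf of endothelium, Csf1r, Msr1 and Ms4a7 of macrophages, Adipoq, Plin1 and Ucp1 of adipocytes, and Pdgfra of fibroblasts. These 22 genes were read in the same nuclei that are described here, so the enrichment of any gene in them is a description and not a finding.

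All 4 libraries came from CA1 knockin ApoE-/- mice, which lack apolipoprotein E and carry an added CA1 gene, encoding carbonic anhydrase 1 (Car1 in the mouse). The MTZ-after library came from aortas of mice on high-fat food that received methoxazolamide once atherosclerosis was established, and the MTZ-simultaneous library from mice given the food and the drug at the same time. The high-fat library came from mice on high-fat food alone, and the untreated library from mice without treatment. MTZ is the abbreviation in the study's title, which calls it an inhibitor of CA1. Each group was 1 library of nuclei from fresh or frozen tissue. The number of animals behind a library, their age and sex, the promoter and origin of the knocked-in gene, and the dose and length of treatment are not stated in the labels, and no library from mice without the knock-in was analysed. No difference between groups has a replicate check, so no test between groups was made. Intervals are 95% and cover counting error only.

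Smooth muscle cells form the aortic media. They contract through smooth muscle myosin and actin, set off by calcium entry, and they lay down and anchor the elastic layers. Serum response factor and its partner myocardin drive the contractile genes, often from a DNA element called the CArG box. In atherosclerosis smooth muscle cells are known to lower this contractile program and to take on matrix-producing and other states.

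Members numbered 760 in the MTZ-after, 1024 in the MTZ-simultaneous, 364 in the high-fat and 303 in the untreated library. They made up 2.71% (2.52 to 2.90, exact binomial) of kept MTZ-after nuclei, 5.32% (5.00 to 5.64) of MTZ-simultaneous nuclei, 0.957% (0.862 to 1.06) of high-fat nuclei and 1.36% (1.21 to 1.52) of untreated nuclei. Libraries differed in depth: the median member had 983.5 UMIs in the MTZ-after, 1460.5 in the MTZ-simultaneous, 1274.0 in the high-fat and 1943.0 in the untreated library. Since deeper nuclei reach 4 markers more easily, the rule was applied again with each nucleus thinned to 500 UMIs. It then took 1.37%, 2.86%, 0.279% and 0.810% of the MTZ-after, MTZ-simultaneous, high-fat and untreated nuclei. The order of the 4 shares was the same at both depths, with the high-fat share the lowest. It turned when 3 markers were enough: the share was then 2.71% (2.55 to 2.87) in the high-fat and 2.28% (2.09 to 2.48) in the untreated library. Thinning does not remove smooth muscle RNA from outside a nucleus, which can also help it reach 4 markers. Of the RNA in lymphocyte nuclei, described below, the positive markers made up a larger part in both MTZ libraries than in the others. The part of such RNA in the higher MTZ shares was not tested. A share of nuclei also depends on how many nuclei of every other type a tissue piece gave, and this was not tested.

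**Figure D1:**
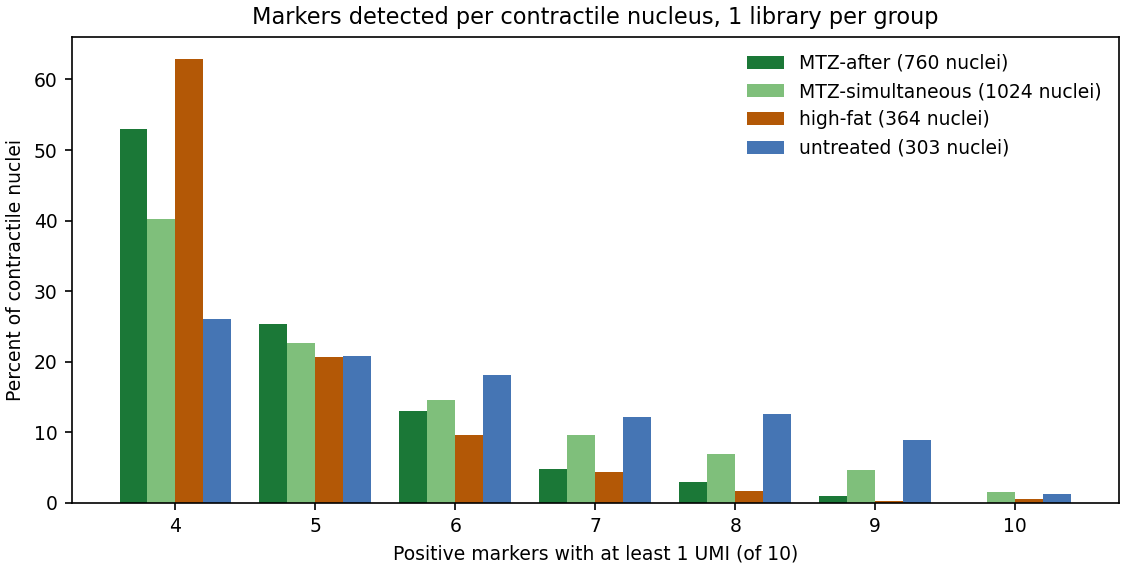
Percent of contractile nuclei in each library (y axis) by the number of the 10 positive markers with at least 1 UMI (x axis). Members with exactly 4 markers made up 62.9% of the high-fat bars and 26.1% of the untreated bars.

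The libraries also differed in how far members passed the threshold, as the plot of markers per nucleus shows. Exactly 4 markers were seen in 53.0% of MTZ-after, 40.2% of MTZ-simultaneous, 62.9% of high-fat and 26.1% of untreated members. At least 7 were seen in 8.55% of MTZ-after, 22.6% of MTZ-simultaneous, 6.87% of high-fat and 35.0% of untreated members. Just outside the threshold, with 3 markers and otherwise passing, lay 923 MTZ-after, 739 MTZ-simultaneous, 665 high-fat and 206 untreated nuclei.

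RNA of other cells was present in the members. To gauge the RNA that any nucleus of a library carries, T and natural killer lymphocyte nuclei (T/NK) were chosen by at least 3 of 9 lymphocyte genes; they should hold no smooth muscle or macrophage transcripts of their own. A single negative marker was tolerated by the rule and was found in 67.0% of MTZ-after, 71.9% of MTZ-simultaneous, 72.8% of high-fat and 64.4% of untreated members. Pecam1, the endothelial adhesion molecule, was the most frequent, with a UMI in 30.9% of MTZ-after, 38.6% of MTZ-simultaneous, 40.4% of high-fat and 28.7% of untreated members. The shares of T/NK nuclei were 35.9%, 47.0%, 37.8% and 31.6% in the MTZ-after, MTZ-simultaneous, high-fat and untreated libraries, at median depths of 871.0, 1291.0, 1173.0 and 1539.5 UMIs. Pecam1 was thus seen in members about as often as in T/NK nuclei. The rule caps negative markers in members, which limits their Pecam1 share. Whether T/NK nuclei make Pecam1 RNA themselves was not tested, so these shares cannot tell where the Pecam1 RNA of members came from. Of the members, 20% in the MTZ-after, 25.6% in the MTZ-simultaneous, 27.5% in the high-fat and 22.4% in the untreated library also met the positive markers of another set, mostly endothelium. Whether these are droplets with more than 1 nucleus was not tested. Endothelial markers summed to 2544.2, 2234.3, 2241.2 and 1662.0 counts scaled per 1e6 (CPM) in MTZ-after, MTZ-simultaneous, high-fat and untreated members with 4 markers, and to 1376.9, 1400.9, 1060.8 and 756.6 CPM in those with 6 or more of the same 4 libraries.

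The label of contractile smooth muscle was set against genes that the rule did not read. Summed over 35 other contractile genes, members had 16574.4 CPM in the MTZ-after, 18834.7 in the MTZ-simultaneous, 12425.3 in the high-fat and 22410.0 in the untreated library. T/NK nuclei had 7494.3, 5413.1, 6035.9 and 5083.0 CPM for the same genes in the MTZ-after, MTZ-simultaneous, high-fat and untreated libraries. Members were above T/NK nuclei in all 4 libraries, and furthest in the untreated library. Nuclei with both Hpse2 and Col19a1, the second mural population, were above members in every library. They had 22640.7, 30954.5, 17572.7 and 33447.8 CPM in the MTZ-after, MTZ-simultaneous, high-fat and untreated libraries. Markers of other contractile cells were present in part. The 12 visceral muscle markers summed to 536.5, 572.9, 456.4 and 373.6 CPM in MTZ-after, MTZ-simultaneous, high-fat and untreated members, against 294.4, 213.9, 186.9 and 114.3 CPM in T/NK nuclei of the same 4 libraries, with Barx1 and Tacr2 at 0 in every library's members. The 12 pericyte markers summed to 658.9, 597.8, 500.9 and 760.7 CPM in MTZ-after, MTZ-simultaneous, high-fat and untreated members, against 261.0, 126.1, 283.4 and 145.5 CPM in T/NK nuclei of the same 4 libraries, with Higd1b at 0 in the members of 3. The 12 cardiac markers summed to 425.3, 390.8, 251.4 and 576.9 CPM in MTZ-after, MTZ-simultaneous, high-fat and untreated members, against 153.9, 54.8, 66.3 and 80.6 CPM in T/NK nuclei of the same 4 libraries, with the natriuretic peptide gene Nppa at 0 in the members of 3. All 3 sums were above T/NK nuclei in every library. The visceral sum was not particular to members. Endothelial nuclei had 590.6, 516.9, 312.6 and 522.9 CPM for it in the MTZ-after, MTZ-simultaneous, high-fat and untreated libraries. Nuclei with both Hpse2 and Col19a1 had 621.9, 864.2, 537.2 and 429.3 CPM in the same 4 libraries, above members in each. The pericyte sum of those nuclei was above members in each library as well, at 862.7, 1019.6, 710.5 and 858.6 CPM in the same order. Their cardiac sum was 328.4, 646.6, 485.2 and 390.3 CPM, above members in the MTZ-simultaneous and high-fat libraries and below them in the MTZ-after and untreated libraries. The 12 skeletal markers summed to 6.12 to 30.6 CPM in members and 12.1 to 33.5 CPM in T/NK nuclei, with Myh1, Myh2 and Myh4 at 0 in every library's members. Fibroblast markers summed to 2583.6, 2524.1, 5203.7 and 4017.8 CPM in MTZ-after, MTZ-simultaneous, high-fat and untreated members, against 7509.7 to 9916.9 CPM in fibroblast nuclei. The high-fat sum was the highest, and 1 high-fat nucleus held 60.4% of the Col3a1 counts there.

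The markers themselves, which the rule read, were carried by the following shares. Myh11, the smooth muscle myosin heavy chain (chr16:14194535-14291372, minus strand, GRCm38), had a UMI in 78.6% of MTZ-after, 85.9% of MTZ-simultaneous, 72.3% of high-fat and 84.5% of untreated members. At 500 UMIs per nucleus the shares were 52.5%, 52.9%, 36.8% and 50.5% in MTZ-after, MTZ-simultaneous, high-fat and untreated members, and in unthinned T/NK nuclei 26.7%, 28.2%, 14.3% and 12.3% of the same 4 libraries. The high-fat share was the lowest among members at either depth, and T/NK nuclei with a Myh11 UMI were most frequent in both MTZ libraries. Myocd, encoding myocardin, had a UMI in 36.4%, 43.1%, 43.4% and 64.0% of members in the MTZ-after, MTZ-simultaneous, high-fat and untreated libraries, and in 21.6%, 19.0%, 21.7% and 31.0% at 500 UMIs. Cnn1, encoding calponin, was the least often seen, in 7.63%, 16.9%, 15.7% and 16.2% in MTZ-after, MTZ-simultaneous, high-fat and untreated members. The 10 markers summed to 6648.4, 8000.9, 4640.3 and 7502.7 CPM in MTZ-after, MTZ-simultaneous, high-fat and untreated members and to 1365.0, 899.4, 705.5 and 353.4 CPM in T/NK nuclei of the same 4 libraries. Nuclei with both Hpse2 and Col19a1, which the rule left out, held more: 6665.2 CPM in 171 MTZ-after, 11594.7 in 53 MTZ-simultaneous, 5025.7 in 34 high-fat and 14752.9 in 7 untreated nuclei.

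The 25 genes that most set members apart from all other nuclei, leaving out the rule's genes, were largely muscle genes. They were ranked by the lowest, over the 4 libraries, of the lower interval bound of member CPM over CPM in all other kept nuclei. Of 2613 genes with at least 50 counts in the members of every library, 55 were at least 2-fold higher in members in all 4, and 0 were at most 0.5 in all 4. Ctnna3, encoding the muscle adhesion protein alpha-T-catenin (chr10:63430098-65003667, plus strand), led the list at 1271.4 CPM in MTZ-after, 1227.3 in MTZ-simultaneous, 609.7 in high-fat and 1528.7 in untreated members. Other nuclei had 265.1, 234.0, 119.7 and 90.9 CPM in the MTZ-after, MTZ-simultaneous, high-fat and untreated libraries, giving ratios of 4.80 to 16.8. The ratio was highest in the untreated library for every one of the 25 genes, and other nuclei of that library held the least Ctnna3.

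**Figure D2:**
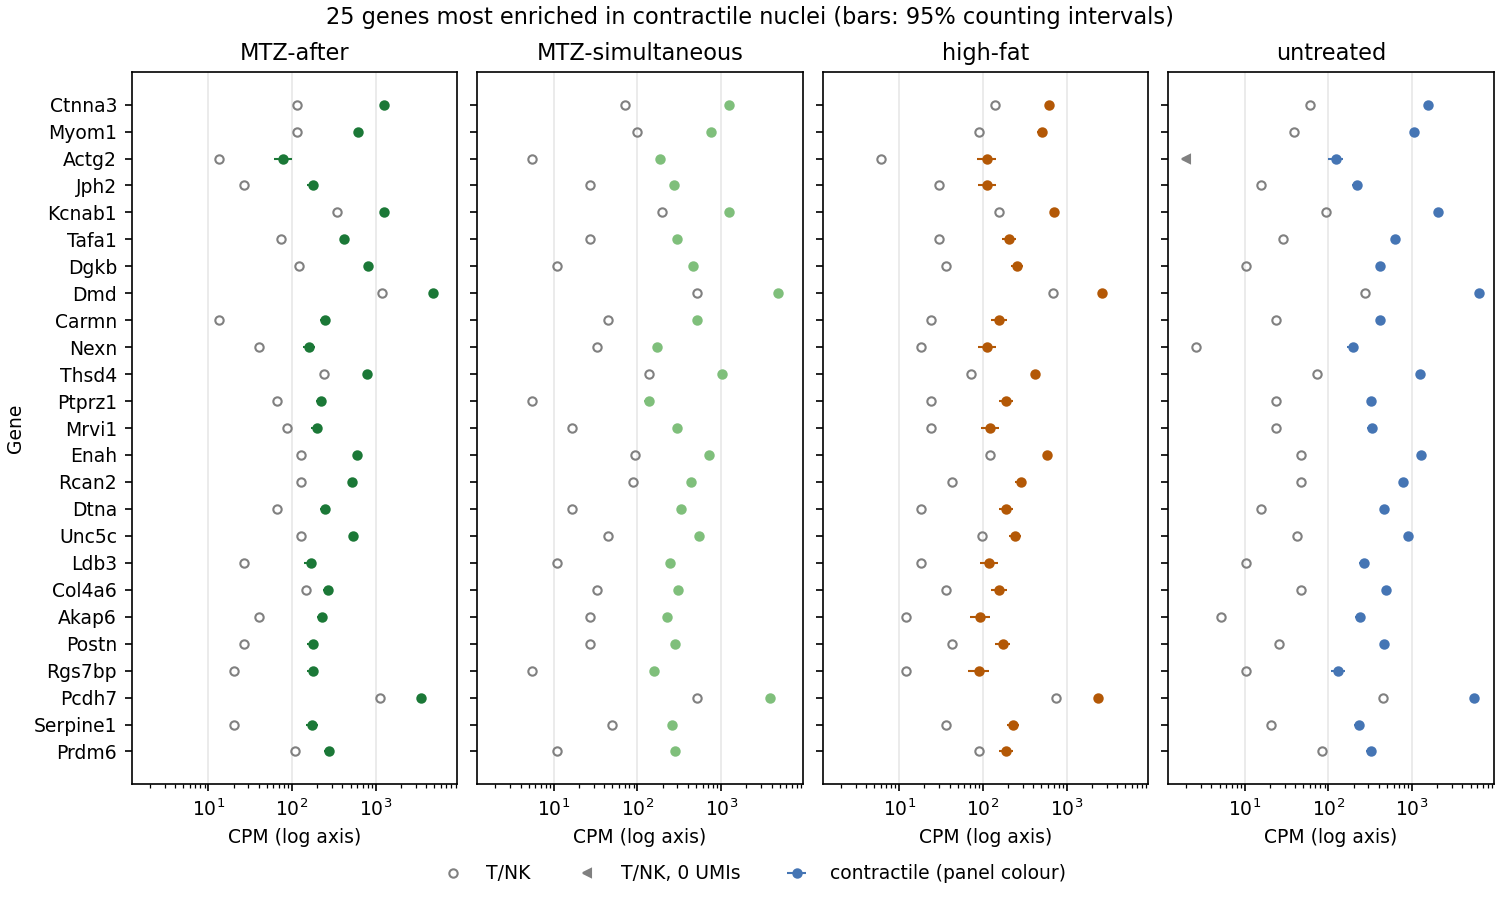
CPM on a log axis (x) of the 25 genes most enriched in contractile nuclei (y, in rank order) in contractile nuclei (filled, 95% counting intervals) and T/NK nuclei (open) of each library. Contractile nuclei lie to the right of T/NK nuclei for all 25 genes in every library, and Actg2 had 0 UMIs in untreated T/NK nuclei (triangle).

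Sarcomere and actin-binding proteins formed the largest group. Myom1, encoding the thick-filament linker myomesin 1, had 622.6, 758.4, 504.5 and 1046.1 CPM in MTZ-after, MTZ-simultaneous, high-fat and untreated members. Actg2, the enteric smooth muscle actin, had 78.3, 185.5, 110.5 and 122.5 CPM in MTZ-after, MTZ-simultaneous, high-fat and untreated members against 12.4, 38.1, 14.0 and 3.24 CPM in other nuclei of the same 4 libraries. Dmd, encoding dystrophin, which ties actin to the membrane, had 4807.6, 4800.4, 2618.8 and 6293.7 CPM in MTZ-after, MTZ-simultaneous, high-fat and untreated members. Ldb3, Nexn, Enah, Akap6 and Dtna, whose proteins organise actin or anchor the cytoskeleton and signalling enzymes, belonged here too. In each of Myom1 and Dmd the high-fat library was the lowest and the untreated library the highest.

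Calcium and membrane genes followed. Jph2, whose junctophilin 2 couples the cell membrane to the calcium store, had 176.9, 271.5, 112.3 and 220.5 CPM in MTZ-after, MTZ-simultaneous, high-fat and untreated members. Kcnab1, a beta subunit of voltage-gated potassium channels, had 1266.8, 1256.1, 702.4 and 2013.8 CPM in MTZ-after, MTZ-simultaneous, high-fat and untreated members. Mrvi1, a target of cGMP-dependent kinase at the calcium store, and Rcan2, a regulator of calcineurin, were also listed. Carmn, a long non-coding RNA gene known to act with myocardin (chr18:61649625-61665537, minus strand), had 246.1, 518.6, 156.9 and 410.4 CPM in MTZ-after, MTZ-simultaneous, high-fat and untreated members against 13.4, 43.9, 24.1 and 23.4 CPM in T/NK nuclei of the same 4 libraries. Its MTZ-simultaneous level was the highest and its high-fat level the lowest.

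Another group encodes matrix, guidance and secreted proteins. Col4a6, a basement membrane collagen chain, had 267.7, 305.4, 155.1 and 491.2 CPM in MTZ-after, MTZ-simultaneous, high-fat and untreated members, against 148.9, 149.2, 104.0 and 156.1 CPM in nuclei with Hpse2 and Col19a1 of the same 4 libraries. Tafa1, a secreted neurokine, had 419.6, 294.7, 205.0 and 625.9 CPM in MTZ-after, MTZ-simultaneous, high-fat and untreated members, against 135.8, 87.0, 0 and 234.2 CPM in that second mural set of the same 4 libraries. Unc5c, a netrin receptor (chr3:141465216-141834924, plus strand), had 534.2, 544.6, 242.4 and 884.4 CPM in MTZ-after, MTZ-simultaneous, high-fat and untreated members, against 166.4, 472.5, 121.3 and 0 CPM in the second set of the same 4 libraries. Members thus held more of these 3 genes than the second mural set in every library, while for Ctnna3, Myom1 and Kcnab1 that set held more than members in all 4. Dgkb, a diacylglycerol kinase, was lower in members too, at 804.1, 457.5, 254.9 and 416.5 CPM in MTZ-after, MTZ-simultaneous, high-fat and untreated members against 1423.3, 3183.1, 1785.0 and 1053.8 CPM in the second set of the same 4 libraries. The second set was small, so these values rest on few nuclei.

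Genes lower in members than in other nuclei in all 4 libraries included Bmp6, a BMP ligand gene, and Spon1, a secreted matrix protein gene, with ratios of 0.386 to 0.640 and 0.310 to 0.590. Endothelial genes were among them: Ptprb, an endothelial phosphatase, had 544.4, 487.5, 449.2 and 249.9 CPM in MTZ-after, MTZ-simultaneous, high-fat and untreated members, and Tek, the angiopoietin receptor, had 231.4, 163.4, 197.9 and 102.9 CPM in members of the same 4 libraries. Neither was at or near 0.

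Promoter sequence of the muscle genes is shown because CArG boxes are the element through which serum response factor and myocardin are known to act. RefSeq promoter windows of build GRCm38.p6, 250 bases before each start, were found for 26 of the 35 genes looked up, 38 windows in all. The CArG box was searched on both strands by its name pattern, CC, then 6 bases of A or T, then GG. Strict boxes were in 4 windows of 3 genes, Myom1, Dmd and Ldb3, that is 4 of 38 windows, against 1.47% of all 32851 windows in the table. A pair of the windows, both of Ldb3, overlap and share 1 box. Allowing 1 mismatch, 12 windows (31.6%) of 10 genes held a box, against 18.6% of all windows. Capitals below mark the box, which is strict in Dmd, Myom1 and Ldb3 and has 1 mismatch in each of the 2 boxes of Acta2, the smooth muscle actin gene. The Dmd window holds 1 further box with 1 mismatch, which is left in lower case. Each is written 5′ to 3′ on its gene's strand. The coordinates are chrX:82948620-82948869 for Dmd (plus strand), chr17:71019307-71019556 for Myom1 (plus), chr14:34588608-34588857 for Ldb3 (minus) and chr19:34255374-34255623 for Acta2 (minus).
Dmd: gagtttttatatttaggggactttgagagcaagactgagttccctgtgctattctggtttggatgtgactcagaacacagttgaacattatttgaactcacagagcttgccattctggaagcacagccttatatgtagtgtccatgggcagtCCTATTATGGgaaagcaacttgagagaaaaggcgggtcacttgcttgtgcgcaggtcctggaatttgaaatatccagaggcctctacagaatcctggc
Myom1: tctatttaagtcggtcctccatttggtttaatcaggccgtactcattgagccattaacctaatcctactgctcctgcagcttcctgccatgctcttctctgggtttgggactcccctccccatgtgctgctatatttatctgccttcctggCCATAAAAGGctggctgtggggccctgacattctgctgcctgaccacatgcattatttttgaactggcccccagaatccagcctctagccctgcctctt
Ldb3: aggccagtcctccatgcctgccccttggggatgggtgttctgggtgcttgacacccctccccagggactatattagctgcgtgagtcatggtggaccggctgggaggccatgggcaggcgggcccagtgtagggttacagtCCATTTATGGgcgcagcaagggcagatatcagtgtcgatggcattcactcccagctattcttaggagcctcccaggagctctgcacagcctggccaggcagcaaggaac
Acta2: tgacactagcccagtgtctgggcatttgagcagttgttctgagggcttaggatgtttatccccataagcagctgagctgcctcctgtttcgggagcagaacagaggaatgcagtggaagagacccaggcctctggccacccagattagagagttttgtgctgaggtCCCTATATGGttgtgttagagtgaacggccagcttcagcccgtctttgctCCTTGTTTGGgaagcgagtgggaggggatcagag
The strict box lay 98 bases before the start in Dmd, 99 in Myom1 and 109 in Ldb3. A match is a description of these letters and not a site that was shown to be bound. Tagln, Myh11 and Actg2 had no window in the table.

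Members varied among themselves most in a few long or abundant transcripts. Over 1747 genes measured in members thinned to 500 UMIs, the median over genes of variance over mean was 1.04, close to the value of 1 that counting alone gives, and 95% of genes were at or below 1.27. Dmd reached 2.76 as the median over libraries, Pcdh7, a protocadherin, 2.43, Kcnab1 1.85 and Ctnna3 1.81. The matrix genes Fn1 (fibronectin, 2.35), Col1a1 (collagen I, 2.18), Eln (elastin, 1.95) and Thbs1 (thrombospondin 1, 1.76) stood out too. Spp1, encoding osteopontin, had 5.58 in the MTZ-after library, where a single thinned nucleus held 36 UMIs, against 1.56 to 2.44 in the others. Malat1, a nuclear RNA, led with 4.29.

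Summed contractile RNA was higher with the number of markers a member carried, which the rule partly fixes. The 35 other contractile genes summed to 13290.9, 12054.6, 10463.8 and 12789.5 CPM in MTZ-after, MTZ-simultaneous, high-fat and untreated members with 4 markers. Members with 6 or more had 22475.9, 25772.3, 17494.5 and 26178.6 CPM in the MTZ-after, MTZ-simultaneous, high-fat and untreated libraries. At either number the high-fat library was the lowest.

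The shares of members with a UMI of a Hox gene, a family that records position along the body axis, were low. The 3 seen most often are given first. Hoxa3 had a UMI in 13%, 14.2%, 11% and 14.9% of MTZ-after, MTZ-simultaneous, high-fat and untreated members, Hoxb3 in 9.61%, 11.8%, 10.2% and 10.2%, and Hoxb6 in 8.03%, 10.3%, 9.34% and 9.24% of members of the same 4 libraries. At 500 UMIs per nucleus Hoxa3 was seen in 5.53%, 3.61%, 2.20% and 3.63% in MTZ-after, MTZ-simultaneous, high-fat and untreated members. Others differed between libraries: Hoxc6 was seen in 5.66%, 2.73%, 2.75% and 2.97%, and Hoxd3 in 3.16%, 2.05%, 1.92% and 0.660% of MTZ-after, MTZ-simultaneous, high-fat and untreated members, unthinned. At 500 UMIs Hoxc6 was seen in 1.84%, 0.977%, 1.65% and 0.330%, and Hoxd3 in 1.45%, 0.293%, 0.824% and 0.330% of members of the same 4 libraries. These shares rest on few nuclei, such as 2 of 303 untreated members for unthinned Hoxd3. Whether the tissue pieces spanned the same stretch of aorta was not tested.

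Car1, the gene of the drug's target, was at the level of other nuclei. Members had 65.8 CPM in the MTZ-after, 144.2 in the MTZ-simultaneous, 87.4 in the high-fat and 133.5 in the untreated library, and T/NK nuclei of the same 4 libraries had 60.2, 142.6, 66.3 and 85.8 CPM. The ratio of members to all other nuclei was between 0.955 and 1.05. Whether counts of a knocked-in copy align to Car1 was not tested. Apoe, the deleted gene, was at 6.80, 7.92, 8.91 and 7.35 CPM in MTZ-after, MTZ-simultaneous, high-fat and untreated members.

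The first comparison sets the high-fat diet against no treatment. A gene was called when its CPM ratio was at least 2 or at most 0.5 and its higher CPM came to at least 50 counts at the smaller library's member total, which was 560952 UMIs in high-fat members. The other totals were 881720, 1768177 and 816375 UMIs in MTZ-after, MTZ-simultaneous and untreated members. Of 3086 genes with enough counts, 243 (7.87%) were higher and 189 (6.12%) lower in high-fat than in untreated members. With trimmed-mean scaling, which moved all log2 ratios by -0.17, the split was 165 higher and 287 lower. To see which calls concerned RNA of the members themselves, genes were set apart whose CPM, in the library with the higher level, was at least 3 times that of its T/NK nuclei. Such genes are called member-enriched here, a rule chosen after values were seen. None (0) of the 243 higher genes and 127 of the 189 lower genes were member-enriched. Of all 3086 genes 318 were, and 304 of these had the higher level in untreated members, where T/NK nuclei carried less contractile RNA. In the untreated library 2 of 212 T/NK nuclei were also members, against 7 of 119 in the high-fat library. The part of this overlap in the split was not tested.

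**Figure D3:**
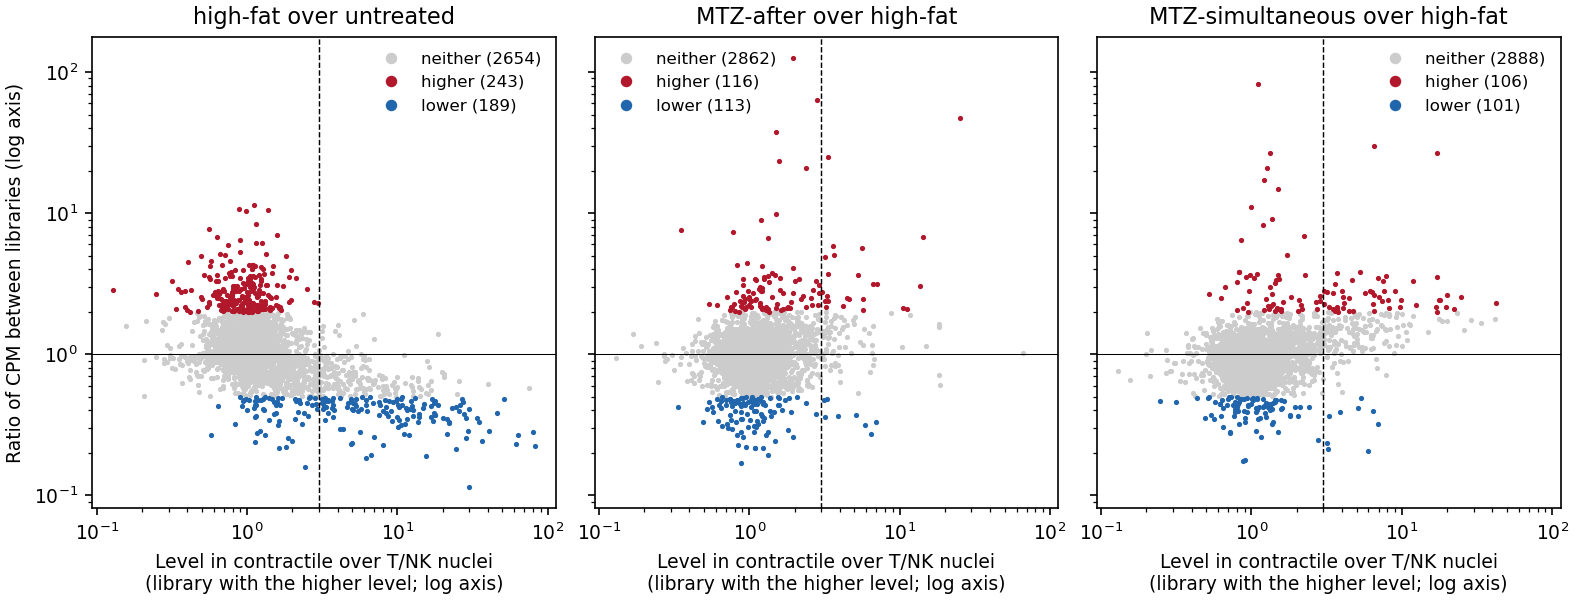
Ratio of CPM between libraries (y, log axis) against the level in contractile over T/NK nuclei in the library with the higher level (x, log axis), 1 point per tested gene, dashed line at 3. In the first panel the 243 higher genes (red) all lie left of the line, and 127 of the 189 lower genes (blue) lie at or right of it.

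A part of the genes of the contractile apparatus was lower in the high-fat library. Of 30 tested genes in the list of other contractile genes, 0 were called higher and 8 lower, and the median log2 ratio was -0.70, against 0.21 in T/NK nuclei. Dmd was at 0.416 of its untreated level (0.392 to 0.441). Pdlim3, an actinin-associated LIM protein gene, had 108.7 CPM in high-fat and 319.7 CPM in untreated members, a ratio of 0.340 (0.253 to 0.451). Fhl1 (0.383), Ldb3 (0.437), Myh10 (0.407), Sgcd (0.461), Ppp1r12b (0.481) and the tropomyosin gene Tpm2 (0.322) made up the 8.

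The rule's own genes, whose levels in members the rule partly sets, are given as a description. Myh11 had 755.9 CPM in high-fat and 1555.7 CPM in untreated members, a ratio of 0.486 (0.434 to 0.543). Itga8, an integrin chain, had 702.4 CPM in high-fat and 1465.0 CPM in untreated members, a ratio of 0.479 (0.427 to 0.538). Acta2 had 855.7 CPM in high-fat and 1060.8 CPM in untreated members, a ratio of 0.807 (0.720 to 0.903). Of the actin-filament genes, Tagln, encoding transgelin, was at 1.06 (0.874 to 1.28) and Cnn1 at 1.39 (0.968 to 1.99), both intervals spanning 1. The scaling shift is large enough to move Tagln to below 1.

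Calcium entry and membrane excitability genes were lower in part as well. Of 18 tested, 0 were called higher and 8 lower, with a median log2 ratio of -0.63, against 0.20 in T/NK nuclei. Cacna1c, the pore of the L-type calcium channel, had 452.8 CPM in high-fat and 1113.5 CPM in untreated members, a ratio of 0.407 (0.352 to 0.468). Its subunit Cacnb2 was at 0.440 and the ryanodine receptor Ryr2, a release channel of the calcium store, at 0.398. Kcnma1, the large-conductance potassium channel that relaxes vessels, had 269.2 CPM in high-fat and 638.2 CPM in untreated members, a ratio of 0.422 (0.350 to 0.507). Kcnab1 was at 0.349 (0.312 to 0.390), the chloride channel Ano1 at 0.368 and the ATP-sensitive channel subunit Abcc9 at 0.371. Among 18 tested genes of vasoactive signalling, 0 were called higher and 4 lower: both subunits of the nitric oxide receptor, Gucy1a1 (0.447) and Gucy1b1 (0.418), with Npr3 (0.452) and Rgs7 (0.335). Rgs7 was not member-enriched, with 563.5 CPM in untreated members and 345.6 CPM in untreated T/NK nuclei.

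Of the regulators, 21 were tested, 0 called higher and 1 lower, with a median log2 ratio of -0.18. The 1 was Carmn, with 156.9 CPM in high-fat and 410.4 CPM in untreated members, a ratio of 0.382 (0.299 to 0.485). Myocd had 431.4 CPM in high-fat and 670.0 CPM in untreated members, a ratio of 0.644 (0.551 to 0.750).

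Basement membrane and attachment genes were lower in part: of 31 collagen and basement membrane genes tested, 0 were called higher and 9 lower, with a median log2 ratio of -0.27, against 0.77 in T/NK nuclei. Npnt, encoding nephronectin, the ligand of the integrin that Itga8 helps to form, had 67.7 CPM in high-fat and 318.5 CPM in untreated members, a ratio of 0.213 (0.147 to 0.300). Its MTZ-after and MTZ-simultaneous levels were 97.5 and 92.2 CPM, so the untreated library stood above the other 3. Col4a5 was at 0.401, Col4a6 at 0.316 and Postn, encoding periostin, at 0.374 (0.296 to 0.469). Tnc, encoding tenascin C, was at 0.254 (0.191 to 0.332), but 30.5% of its untreated counts came from 1 nucleus, and it was at 0.421 without nuclei deeper than 3 times the library's member median. Cemip, a hyaluronan-degrading protein gene, showed a ratio of 0.270, with 65.7% of its untreated counts in 1 nucleus. It was at 1.06 without such deep nuclei. Fn1 had 1961.0 CPM in high-fat and 1865.6 CPM in untreated members, a ratio of 1.05 (0.972 to 1.14), and was at 2.33 without deep nuclei. Of its untreated counts, 26.9% were in 1 nucleus. Thbs1 was at 1.39 (1.16 to 1.67) and at 4.02 without deep nuclei. Fbln5, an elastic fibre gene, was at 2.21 (1.81 to 2.71), with T/NK levels of 277.4 CPM in the high-fat and 111.7 CPM in the untreated library.

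The 10 genes ranked lowest by the upper bound of their ratio, beside Npnt, Tnc and Cemip, had varied roles. Kcnip4, a potassium channel-interacting protein gene, had 53.5 CPM in high-fat and 466.7 CPM in untreated members, a ratio of 0.115 (0.0763 to 0.166), with 23.9% of the untreated counts in 1 nucleus. Rbfox1, a splicing factor gene, was at 0.160 with 31.3% of its untreated counts in 1 nucleus. Bmpr1b, a BMP receptor gene, had 53.5 CPM in high-fat and 276.8 CPM in untreated members, a ratio of 0.193. Unc5c was at 0.274 (0.227 to 0.330), Pdzrn4 at 0.225, Bdnf, a neurotrophin gene, at 0.191 and Plekhh2 at 0.184. In each of these 7 except Rbfox1 the untreated library was the highest of the 4. Outside the 10, the semaphorin gene Sema5a was at 0.273 and Tgfb2, encoding the ligand TGF-beta 2, at 0.330.

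**Figure D4:**
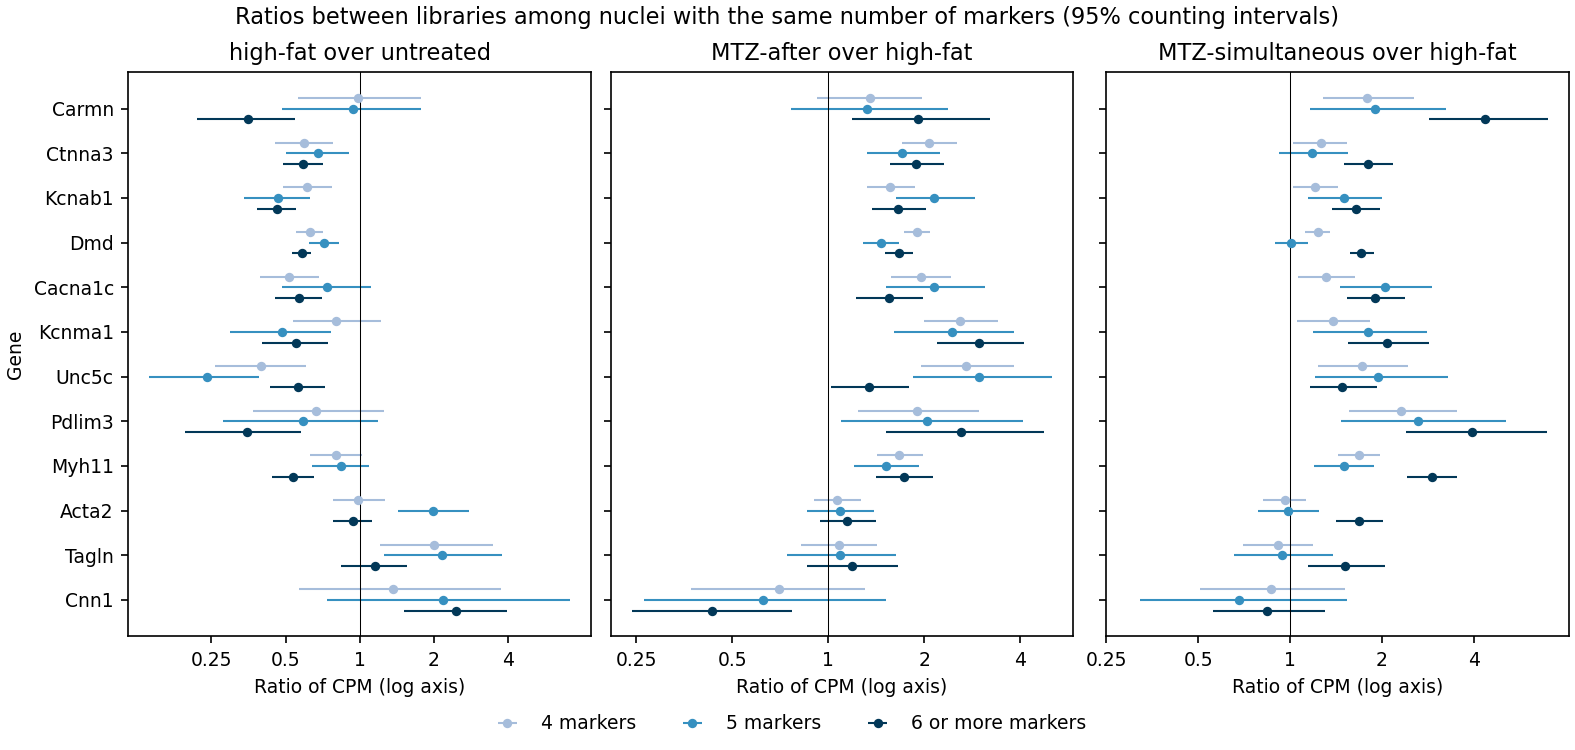
Ratio of CPM between libraries (x, log axis, 95% counting intervals) for 12 genes (y) among nuclei with 4, 5, or 6 or more positive markers. In the first panel Ctnna3, Kcnab1, Dmd and Unc5c lie below 1 at every number of markers. Carmn is near 1 at 4 and 5 markers, with wide intervals (0.564 to 1.77 and 0.484 to 1.78), and at 0.353 at 6 or more.

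Because high-fat members carried fewer markers, ratios were taken again among nuclei with the same number, a split chosen after values were seen. The genes were picked for differing in these same nuclei, so their ratios within a stratum are a description. At 4, 5, and 6 or more markers, Dmd was at 0.626, 0.717 and 0.581, Kcnab1 at 0.613, 0.464 and 0.462, and Unc5c at 0.396, 0.239 and 0.561. Carmn was at 0.980 (0.564 to 1.77), 0.935 (0.484 to 1.78) and 0.353 (0.218 to 0.545). Among genes that the rule and the strata themselves read, Myh11 was at 0.800, 0.839 and 0.537 and Itga8 at 0.699, 0.769 and 0.639. Acta2 was at 0.988, 1.99 and 0.936 and Tagln at 2.0, 2.15 and 1.15. Cnn1 was at 1.36 (0.568 to 3.73), 2.17 (0.734 to 7.13) and 2.47 (1.51 to 3.98). Some of these ratios rest on few counts: at 5 markers Cnn1 had 11 high-fat and 6 untreated UMIs. Depth within a stratum still differed, with median UMIs of 1494.0 in high-fat and 2496.0 in untreated members at 6 or more markers, and its part was not tested.

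The 10 genes ranked highest in the high-fat library included macrophage transcripts. Spp1 had 2825.6 CPM in high-fat and 463.0 CPM in untreated members, a ratio of 6.10 (5.45 to 6.85), but T/NK nuclei had 2466.2 CPM in the high-fat and 441.8 CPM in the untreated library. Lyz2, lysozyme of myeloid cells, had 442.1 CPM in high-fat and 85.7 CPM in untreated members, and 331.6 and 93.6 CPM in T/NK nuclei of the high-fat and untreated libraries. Cd5l, a macrophage-secreted protein, had 299.5 CPM in high-fat and 46.5 CPM in untreated members, with 331.6 CPM in high-fat T/NK nuclei. C1qa, Rasgef1b, Bcl11a, Aoah, Nckap1l, Evl and Ly86, mostly genes of blood cells, completed the 10 highest, at ratios of 5.96 to 10.7. The 14 macrophage markers summed to 1027.5, 1120.9, 2338.9 and 866.0 CPM in MTZ-after, MTZ-simultaneous, high-fat and untreated members, against 916.7, 817.2, 2556.7 and 631.5 CPM in T/NK nuclei of the same 4 libraries. In both kinds of nuclei the high-fat sum was the highest and the untreated sum the lowest. The part of RNA from other cells in these ratios was not tested.

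Antigen presentation and interferon genes were higher as a group. Of 9 tested, 8 were called higher and 0 lower, with a median log2 ratio of 1.36, against 0.38 in T/NK nuclei and 0.04 in macrophage nuclei. H2-K1, a class I histocompatibility gene with near-identical relatives, had 707.7 CPM in high-fat and 254.8 CPM in untreated members, a ratio of 2.78 (2.34 to 3.30), against 892.4 CPM in high-fat and 961.5 CPM in untreated T/NK nuclei, which express it themselves. B2m, its partner chain, had 235.3 CPM in high-fat and 91.9 CPM in untreated members, a ratio of 2.56 (1.91 to 3.45). The GTPase gene Iigp1 was at 4.31 and Ddx60 at 3.55. Among members with the same number of markers H2-K1 was at 1.58, 2.27 and 4.06. None of these genes met the 3-fold rule against T/NK nuclei, so RNA made in members and RNA from outside cannot be told apart.

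Of 18 lipid-handling genes tested, 8 were called higher and 1 lower, 11 ratios were above 1 and 7 below, with a median log2 ratio of 0.32, against 0.31 in T/NK nuclei. Abca1, the cholesterol efflux pump, had 1142.7 CPM in high-fat and 459.3 CPM in untreated members, a ratio of 2.49 (2.19 to 2.83), and T/NK nuclei had 1471.3 CPM in the high-fat and 397.6 CPM in the untreated library. Abcg1 was at 3.56, the lysosomal lipase Lipa at 2.71 and the lipoprotein lipase Lpl at 2.20. The T/NK level was as high as the member level for Abca1 and Abcg1 in the high-fat library. Of 8 energy genes tested, 4 were called lower, Esrrg (0.242), Gk (0.285), Ppargc1a (0.266) and Ppargc1b (0.380), and the median in T/NK nuclei was similar, at -0.84 against -0.89 in members. Of 11 endoplasmic reticulum stress genes tested, 0 were called in either direction, with a median log2 ratio of 0.63.

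The second comparison sets MTZ given after disease against high-fat food alone. Of 3091 genes tested, 116 (3.75%) were higher and 113 (3.66%) lower in MTZ-after members. Of these, 24 higher and 8 lower genes were member-enriched, out of 104 such genes tested. Of the 104, 76 had the higher level in MTZ-after and 28 in high-fat members, against 1380 and 1711 of all 3091 genes. This comparison and the first share the high-fat library, so the 2 sets of ratios are not independent.

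Contractile genes differed little by this rule. Of 26 other contractile genes tested, 1 was called higher and 0 lower, with a median log2 ratio of 0.23, and 0.22 in T/NK nuclei. The 1 was Pdlim3, with 245.0 CPM in MTZ-after and 108.7 CPM in high-fat members, a ratio of 2.25 (1.69 to 3.04). T/NK nuclei had 93.7 CPM of Pdlim3 in the MTZ-after and 36.2 CPM in the high-fat library, so it was not member-enriched here. Dmd was at 1.84 (1.73 to 1.95), Myh11 at 1.74 (1.55 to 1.95), Mylk, the myosin light chain kinase, at 1.91 (1.62 to 2.27), Acta2 at 1.16 (1.04 to 1.30) and Cnn1 at 0.606 (0.418 to 0.877). MTZ-after T/NK nuclei had 1177.7 CPM of Dmd, 307.8 of Myh11 and 174.0 of Mylk. High-fat T/NK nuclei had 687.4, 114.6 and 60.3 CPM of Dmd, Myh11 and Mylk. Over the rule's 10 genes the median log2 ratio was 0.38 in members, and 1.15 in T/NK nuclei over the 9 with enough counts. Ctnna3 passed, with 1271.4 CPM in MTZ-after and 609.7 CPM in high-fat members, a ratio of 2.09 (1.85 to 2.36), and was at 2.07, 1.71 and 1.89 among members with 4, 5, and 6 or more markers.

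Calcium and channel genes differed in part. Of 18 tested, 2 were called higher and 0 lower, with a median log2 ratio of 0.51, against 0.12 in T/NK nuclei. Kcnma1 had 769.0 CPM in MTZ-after and 269.2 CPM in high-fat members, a ratio of 2.86 (2.39 to 3.43), and T/NK nuclei had 287.7 CPM in the MTZ-after and 66.3 CPM in the high-fat library. It was at 2.60, 2.44 and 2.97 among members with 4, 5, and 6 or more markers. Cacnb2 had 1447.2 CPM in MTZ-after and 468.8 CPM in high-fat members, a ratio of 3.09 (2.70 to 3.54), with 495.2 CPM in MTZ-after and 90.4 CPM in high-fat T/NK nuclei. Both channel genes were thus higher in T/NK nuclei as well, from a lower level and by a larger ratio, and neither was member-enriched. Among 16 vasoactive genes, 2 were called higher, Gucy1a1 (2.17) and Rgs7 (2.15), and 0 lower.

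Member-enriched genes that were higher included Dgkb, with 804.1 CPM in MTZ-after and 254.9 CPM in high-fat members, a ratio of 3.15 (2.63 to 3.8). Its MTZ-after level was also above the 457.5 CPM of MTZ-simultaneous members. Lrrtm3, a synaptic adhesion protein gene, was at 5.64 (3.30 to 10.4). Sema5a was at 2.57 and its fellow guidance gene Unc5c at 2.20, the kinase anchor Akap6 at 2.47 and the kinase gene Mylk4 at 2.48. Kcnip4 was at 5.03, with 32.5% of its MTZ-after counts in 1 nucleus, and Cntnap2 at 47.4, with 89.9% in 1 nucleus.

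Several of the 10 genes ranked highest were also found in T/NK nuclei of the MTZ-after library. Caln1 had 201.9 CPM and Akr1cl 125.9 CPM in MTZ-after members, and both had 0 UMIs in high-fat members, so they were at least 37.7-fold and at least 23.5-fold higher against a floor of 3 counts per library. Nrg3 had 223.4 CPM in MTZ-after members, against 1.78 CPM in high-fat members. T/NK nuclei of the MTZ-after library had 133.8 CPM of Caln1, 80.3 of Akr1cl and 113.8 of Nrg3, and those of the high-fat library 0 UMIs of each. Cntnap2 differed from these, with 169.0 CPM in members and 6.69 CPM in T/NK nuclei of the MTZ-after library. It was not particular to members, as endothelial nuclei had 100.9 CPM in the MTZ-after and 4.31 CPM in the high-fat library. Fibroblast nuclei had 128.2 and 4.07 CPM of it in the MTZ-after and high-fat libraries. Syt1, Frmpd4, Rbfox1, Dlg2, Lrp1b and Lsamp, several of them nerve-cell genes, completed the 10 with Cntnap2, and Rbfox1 was at 9.92 with 46.7% of its MTZ-after counts in 1 nucleus. Markers of the adrenal gland summed to 310.8 CPM in MTZ-after members, 55.4 in MTZ-simultaneous, 25 in high-fat and 25.7 in untreated members, and to 388.1 CPM in MTZ-after T/NK nuclei. Their part in these ratios was not tested.

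Some lysosomal and macrophage transcripts were lower in MTZ-after members. Lyz2 had 85.1 CPM in MTZ-after and 442.1 CPM in high-fat members, a ratio of 0.192 (0.147 to 0.25), with 87.0 CPM in MTZ-after and 331.6 CPM in high-fat T/NK nuclei. The lysosomal proteases Ctsl (0.244) and Ctsd (0.268), with Lgals3 (0.229), Fabp5 (0.219), Ftl1 (0.280), Cd5l (0.258) and Spp1 (0.323, 0.296 to 0.352) were in the same range. Diaph3, a formin gene, was lowest at 0.169. Col1a1 had 417.4 CPM in MTZ-after and 1321.0 CPM in high-fat members, a ratio of 0.316 (0.278 to 0.359), with 46.0% of the high-fat counts in 1 nucleus, and was at 0.397 without deep nuclei. Lum, a collagen-binding proteoglycan gene, was at 0.473. In the list of genes tied to modulated smooth muscle, 16 were tested, 1 was called higher and 4 lower, with a median log2 ratio of -0.67, against -0.34 in T/NK nuclei. For high-fat over untreated, 17 genes of that list were tested, 3 called higher and 2 lower. The median log2 ratio there was 0.08, against 0.66 in T/NK nuclei. Of 11 endoplasmic reticulum stress genes, 0 were called higher and 3 lower, with a median of -0.84, against -0.47 in T/NK nuclei: the chaperone gene Hspa5 (0.365), Pdia3 (0.445) and Dnajc3 (0.493). Of 9 interferon genes tested, 0 were called in either direction.

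The third comparison sets MTZ given with the diet against the diet alone. Of 3095 genes tested, 106 (3.42%) were higher and 101 (3.26%) lower in MTZ-simultaneous members. Of the higher genes 52 were member-enriched, and of the lower 9, out of 209 such genes tested. Of the 209, 187 had the higher level in MTZ-simultaneous and 22 in high-fat members, against 1253 and 1842 of all 3095 genes. The third comparison also uses the same high-fat library.

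The contractile list held more called genes here. Of 28 tested, 5 were called higher and 0 lower, with a median log2 ratio of 0.52, against -0.27 in T/NK nuclei. Pdlim3 had 379.5 CPM in MTZ-simultaneous and 108.7 CPM in high-fat members, a ratio of 3.49 (2.68 to 4.61), with 54.8 CPM in MTZ-simultaneous and 36.2 CPM in high-fat T/NK nuclei. Tpm2 was at 2.78 (1.77 to 4.60), Myh10 at 2.14, Ldb3 at 2.08 and the myosin phosphatase subunit Ppp1r12b at 2.02. Myh11, which the rule read, had 1937.6 CPM in MTZ-simultaneous and 755.9 CPM in high-fat members, a ratio of 2.56 (2.32 to 2.84). Tagln was at 1.39 (1.19 to 1.64) and Acta2 at 1.55 (1.41 to 1.72). Cnn1 was at 1.11 (0.834 to 1.49). T/NK nuclei had 274.2 CPM of Myh11 in the MTZ-simultaneous and 114.6 CPM in the high-fat library. Over the rule's 10 genes the median log2 ratio was 0.58 in members, and 0.32 in T/NK nuclei over the 9 with enough counts.

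Carmn and 1 other regulator stood out among 20 tested, of which 2 were called higher and 1 lower. Carmn had 518.6 CPM in MTZ-simultaneous and 156.9 CPM in high-fat members, a ratio of 3.31 (2.65 to 4.16), with 43.9 CPM in MTZ-simultaneous and 24.1 CPM in high-fat T/NK nuclei. Its UMIs were seen in 41.4% of MTZ-simultaneous and 20.3% of high-fat members, or in 19.5% of MTZ-simultaneous and 10.2% of high-fat members thinned to 500 UMIs. In T/NK nuclei, unthinned, the shares were 6.84% and 3.36% in the MTZ-simultaneous and high-fat libraries. Among members with 4, 5, and 6 or more markers it was at 1.79, 1.89 and 4.36. Prdm16, a transcription factor gene, was at 2.18 and Runx2, known for bone formation, at 0.494, with Runx2 higher in T/NK nuclei than in members.

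Csrp2, encoding a smooth muscle LIM protein, had 476.8 CPM in MTZ-simultaneous and 131.9 CPM in high-fat members, a ratio of 3.61 (2.85 to 4.65). It was at 2.48, 2.42 and 3.41 at 4, 5, and 6 or more markers. Rhobtb1 (3.78) and Mylk4 (3.85), Filip1 (2.82), whose protein binds filamin, and Adcy5 (2.62, 2.11 to 3.28), an adenylate cyclase gene, were higher as well. Dgkg (3.53), Astn2 (3.38), Rgs6 (3.31) and Sema5a (2.79) completed the member-enriched genes named by the same ranking. Of 18 channel genes tested, 3 were called higher and 0 lower: Cacna1c at 2.15 (1.88 to 2.46), Kcnma1 at 2.17 (1.83 to 2.59) and Ano1 at 2.17.

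Of the genes that the rule and the strata read, given as a description, Acta2 was at 0.962 and 0.984 at 4 and 5 markers and at 1.68 at 6 or more, and Tagln at 0.911, 0.942 and 1.51. Myh11 was at 1.68, 1.5 and 2.91.

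The 10 genes ranked highest included mesothelial genes. Muc16 had 145.9 CPM in MTZ-simultaneous and 1.78 CPM in high-fat members, and Wt1, a mesothelial transcription factor gene, had 92.8 CPM in MTZ-simultaneous members and 0 UMIs in high-fat members, at least 17.3-fold higher. Mesothelial markers summed to 52.2, 415.7, 10.7 and 132.3 CPM in MTZ-after, MTZ-simultaneous, high-fat and untreated members, against 100.4, 394.9, 30.1 and 88.4 CPM in T/NK nuclei of the same 4 libraries. Rbfox1 (14.8), Cntnap2 (30.1), Kcnd2 (26.6), Cntn5 (26.5), Wdr17 (11.1), Gpm6a (8.27) and Npas3 (9.04) followed, with AY036118 (3.82), which overlaps ribosomal RNA sequence. The part of mesothelial RNA in these ratios was not tested. Cntn5 had 5.48 CPM and Cntnap2 0 UMIs in MTZ-simultaneous T/NK nuclei, and 45.3% of the MTZ-simultaneous Cntnap2 counts were in 1 member. Endothelial nuclei had 69.7 CPM of Cntn5 and 74.1 CPM of Cntnap2 in the MTZ-simultaneous library. Those of the high-fat library had 1.78 CPM of Cntn5 and 4.31 CPM of Cntnap2.

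Of 30 collagen and basement membrane genes tested, 0 were called higher and 4 lower in MTZ-simultaneous members, 16 ratios were above 1, and the median log2 ratio was 0.03, against -0.14 in T/NK nuclei. Col1a1 had 270.3 CPM in MTZ-simultaneous and 1321.0 CPM in high-fat members, a ratio of 0.205 (0.182 to 0.230), and was at 0.353 without deep nuclei. Col3a1 had 601.2 CPM in MTZ-simultaneous and 1884.3 CPM in high-fat members, a ratio of 0.319 (0.293 to 0.348), but 60.4% of its high-fat counts were in 1 nucleus and it was at 0.791 without deep nuclei. Lum was at 0.236, the matricellular gene Thbs1 at 0.366 and Fbln5 at 0.414. Spp1 (0.258), Cd5l (0.179), Ctsl (0.280), Ctsb (0.361) and Mfge8 (0.288), a bridging protein in the clearing of dead cells, were lower, with Diaph3 (0.176), Hs6st2 (0.213), a heparan sulfate enzyme gene, and Hgf (0.246), a growth factor gene. The macrophage marker sum was lower in T/NK nuclei too, at 817.2 CPM in the MTZ-simultaneous and 2556.7 CPM in the high-fat library. Eln, the elastin gene of these cells, had 1480.6 CPM in MTZ-simultaneous and 2779.2 CPM in high-fat members, a ratio of 0.533 (0.50 to 0.568), short of the fold. Of 9 interferon genes tested, 0 were called higher and 2 lower, with Iigp1 at 0.404.

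Of 5 clock genes tested in this comparison, 2 were called higher, Per3 (3.34) and Tef (3.22), and T/NK nuclei showed 98.7 CPM for Per3 in the MTZ-simultaneous and 24.1 CPM in the high-fat library. Slc4a4, the sodium bicarbonate cotransporter gene and the 1 gene called in the carbonic anhydrase and bicarbonate list, had 485.4, 505.0, 230.0 and 825.6 CPM in MTZ-after, MTZ-simultaneous, high-fat and untreated members. Its T/NK levels in the MTZ-after, MTZ-simultaneous, high-fat and untreated libraries were 521.9, 394.9, 174.9 and 704.2 CPM, near those of members in every library.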

How the data were processed

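Nuclei of aortic tissue were profiled with droplet 3' libraries. Per the file headers, the deposited matrices hold UMI counts per gene and barcode written by Cell Ranger 7.0.1. STAR and the build mm10 are named in the submitters' processing notes. Whether intronic reads were counted and how barcodes were filtered is not given in the sources used here. The members and gene lists were chosen with earlier results of these data known.

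Counts were summed over the contractile nuclei of each library and scaled to CPM (Python 3.11.15, numpy 2.4.6, scipy 1.17.1). CPM have exact Poisson intervals and ratios exact conditional intervals at 95%. No p-value was computed because each group is 1 library. Calls needed a ratio of at least 2 or at most 0.5 and 50 counts in the higher library at the smaller total, and the calling step was tested on simulated data. A gene at 0 was set to a floor of 3 counts. Trimmed-mean (TMM) factors came from edgeR 4.0.16 in R 4.3.3. Libraries held 31517272 to 69201159 UMIs. No doublet caller was run: alternatives instead left out nuclei with over 3 times the median UMIs, nuclei that met another set's markers, or every nucleus with a negative marker. Of the barcodes, 1311 occurred in 2 libraries and 8 in 3, and 22 MTZ-after, 29 MTZ-simultaneous, 4 high-fat and 4 untreated members had such a barcode.

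Named genes were, per comparison, the 10 called genes in each direction with interval bounds farthest from 1 whose level was at least 50% of that in 6 other nucleus sets (mitochondrial, ribosomal, haemoglobin, sex-linked, numbered and rule genes left out), the 25 most enriched genes, up to 4 called genes per list, the 15 most variable genes, the rule's genes, and Car1 with sex-linked genes as library checks. Members of all 4 libraries had Y-linked transcripts, and Xist had 0 UMIs in 3 of them. Genes picked for being member-enriched, and others of the lists named beside them, were chosen after values were seen. Alternatives are in the closing section. Gene coordinates are from GENCODE vM21 (GRCm38), and promoters from RefSeq (GRCm38.p6).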

Additional observations from a re-analysis of the deposited data

How the results depend on the processing

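Each count of called genes was recomputed under other choices. For high-fat over untreated (243 higher, 189 lower), there were 61 higher and 71 lower with at least 5 markers, 291 lower with at least 3, 39 and 56 with no negative marker, 47 and 65 with nuclei thinned to 500 UMIs, 148 higher without nuclei that met another set's markers (added after seeing the data), 287 lower with TMM factors, 576 and 345 at a minimum of 20 counts, and 3845 and 2364 with no minimum. For MTZ-after over high-fat (116 higher, 113 lower) the counts were 34 and 51 with at least 5 markers, 284 higher with at least 3, 18 and 24 with no negative marker, 19 and 37 thinned, 68 and 60 without nuclei of another set, 317 and 292 at 20 counts, 193 higher with 50 counts in the higher library alone, and 1684 and 3787 with no minimum. For MTZ-simultaneous over high-fat (106 higher, 101 lower) they were 44 and 55, 236 higher, 21 and 27, 18 and 30, 61 and 58, 255 and 224, 323 higher, and 1523 and 4802 under the same choices, and 66 higher without nuclei over 3 times the median UMIs. Genes tested ranged, for high-fat over untreated, from 534 with no negative marker to 17655 with no minimum.

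Of 600 recomputed ratios of named genes, 453 stayed within their counting interval, 144 moved and 3 reversed. Cemip in high-fat over untreated reversed to 1.06 without deep nuclei, which held most of its untreated counts. Cntn5 in MTZ-simultaneous over high-fat reversed to 0.594 with no negative marker and to 0.866 without nuclei of another set; the cause was not tested. No paired analysis was possible because each group is 1 library and no test was made. With 364 high-fat and 303 untreated members of median 1274.0 and 1943.0 UMIs, genes under 50 counts at the smaller total were not called in the main comparisons. Ratios by marker number had no such minimum.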
